A study of Mus musculus with 1187 samples.

Results

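The 92 genes described here are the rows of a mouse count table whose symbols name cytosolic ribosomal proteins, out of 46517 genes in all. A symbol was taken when it began with Rpl or Rps and a digit, or was Rplp0, Rplp1, Rplp2 or Rpsa. Symbols with -ps or -rs, which mark pseudogenes and related sequences, and the S6 kinases (symbols starting Rps6k) were left out. The rule gave 31 genes of the small subunit, 46 of the large subunit, 14 paralogs or paralog-like symbols and Rps19bp1, which encodes a binding partner of a ribosomal protein and not a ribosomal protein. The 77 subunit genes are called core genes below. Of the 92 genes, 82 stood at 20 CPM (counts scaled to a total of 1000000 reads) or more over all cells, namely all 77 core genes and 5 paralogs, and 10 stood below that level.

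The cytosolic ribosome is built of a small subunit, which reads the mRNA, and a large subunit, which joins the amino acids. Each core protein is normally present once per ribosome, with the stalk proteins Rplp1 and Rplp2 as an exception. Most ribosomal protein mRNAs carry a 5′ terminal oligopyrimidine (TOP) stretch, a C at the cap followed by a run of C and T, through which mTOR signalling controls their translation. The mRNAs themselves are long-lived and abundant in most cells.

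The study set brain endothelium with a normal pericyte cover against endothelium short of pericytes. The labels name 590 cells from Pdgfb ret/+ mice and 597 from Pdgfb ret/ret mice, all adult (3 months) and of strain C57BL/6. The ret allele removes the retention motif of the growth factor PDGF-B, by which endothelium recruits pericytes, and is carried by every cell of the mouse. All mice had also been crossed to Cldn5-GFP and Cspg4-DsRed, and single cells that were green and not red were sorted into wells, where Smart-seq2 made full-length cDNA from polyadenylated RNA. Table columns carry a plate and a well and the labels a running cell number, so no column could be given a genotype. Neither the animals nor their number are given in the sources used here. The 1187 cells were therefore described as 1 pooled sample on 4 plates (521, 522, 523 and 524, with 300, 290, 285 and 312 cells), without a test or a p-value. Plate may coincide with genotype or animal, and these cannot be told apart.

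Cells held 100779 to 584112 gene-assigned reads, with a median of 360947. The 6 pan-endothelial markers summed to 10916 CPM, led by Cldn5 at 4038 CPM. Each of 8 lists of 6 markers for other cell types summed to between 15.6 CPM (erythroid) and 217 CPM (astrocyte), and 19 cells held at least 3 markers of such a type at 100 CPM or more. The ribosomal protein share of reads was 1.42% in those 19 cells and 1.29% in the others.

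The start sites of 8 genes are shown because most ribosomal protein genes are known for the TOP stretch. Rpl38, Rps28, Rpsa and Rpl15 are among the genes with the largest ratios in the comparisons below, and Rps6, Rps18, Rps27 and Rpl28 were chosen, after their sequences had been seen, as examples of the run. Each window runs from 20 bases before the RefSeq start to base 10 after it (GRCm38.p6), on the strand that reads as the mRNA does. Capitals mark a pyrimidine run, that is a C followed by at least 5 bases that are each C or T, starting within 20 bases of the start.
Rpl38, chr11:114668560-114668589, plus strand: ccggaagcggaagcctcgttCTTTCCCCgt
Rps6, chr4:86857358-86857387, minus strand: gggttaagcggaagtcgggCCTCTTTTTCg
Rps18, chr17:33955656-33955685, minus strand: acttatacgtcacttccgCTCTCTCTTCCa
Rps27, chr3:90213639-90213668, minus strand: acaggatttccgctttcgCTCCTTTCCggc
Rpl28, chr7:4792945-4792974, plus strand: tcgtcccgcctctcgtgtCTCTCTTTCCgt
Rpl15, chr14:18270977-18271006, minus strand: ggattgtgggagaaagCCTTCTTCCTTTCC
Rps28, chr17:33824553-33824582, minus strand: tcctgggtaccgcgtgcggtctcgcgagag
Rpsa, chr9:120127746-120127775, plus strand: tggctgtgggttatttaaggacgtcatttc

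A RefSeq start could be matched for 67 of the 92 genes. A gene with several starts was counted when any of them had the run. The run was found at 43 of the 67 (64.2%), and at 39 of 57 matched core genes (68.4%). Among 26958 other genes the same search, on the mRNA-like strand only, found it at 35.4%. It was found at 36.6% of the 6141 of them that stood at 20 CPM or more. By the first listed start alone, the run was found at 40 of the 67 genes (59.7%) and 36 of the 57 core genes (63.2%), against 31.9% of the other genes. The start is the annotated one and was not measured in these cells, and the length of the run and of the window were chosen after the sequences had been seen. In Rpl38 the run began at the annotated first base itself, and in Rps6, Rps18, Rps27 and Rpl28 it began 1 or 2 bases before it. The windows of Rps28 and Rpsa held no such run.

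Ribosomal protein genes took 1.293% of all gene-assigned reads (5417361 of 418924921 reads, exact Clopper-Pearson 95% interval 1.292% to 1.294%, which covers counting error only). The small subunit genes took 0.534% and the large subunit genes 0.722%. The ratio of small to large subunit reads was 0.740 over all cells and lay between 0.737 and 0.743 on the 4 plates. Smart-seq2 covers whole transcripts, so reads grow with transcript length as well as with the number of molecules, and this ratio is not a ratio of molecules. A share of reads also does not give the amount of RNA per cell.

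Per cell the share ran from 0.4998% to 3.37%, with a median of 1.27% and an SD of 0.330% over 1187 cells. In 968 cells it lay between 1% and 2%, in 181 cells it was under 1%, and in 38 cells it was 2% or more, of which 2 cells were at 3% or more. The shares of the small and the large subunit genes moved together over cells, with a Spearman rho of 0.83 (0.75 to 0.89 within plates). The summed share had a rho of -0.026 with the depth of the cell (-0.089 to 0.044 within plates). With the number of genes read at a fixed depth of 100000 reads its rho was 0.055 over all cells, but -0.066 to -0.0022 within plates. Its rho with the mitochondrial share of reads was 0.26 (0.17 to 0.38 within plates). All these values share the total of the cell as their denominator, and the part of the mitochondrial share in the result was not tested.

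At 100000 reads per cell, a cell held reads of a median of 78 of the 92 genes (41 to 86). Core genes had a read in 74.6% (Rpl12) to 99.7% (Rpl41) of cells, with a median of 95.6%. The number of these genes read in a cell had a rho of 0.70 with the number of all genes read in it.

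Levels were compared between genes per length. Per kilobase of coding sequence, core genes ran from 110.6 to 1242 CPM per kilobase, with a median of 280.1. The ends of this order were Rpl36 and Rpl41, the smallest ribosomal protein, with an 11.2-fold difference between them. Rpl41 was followed by Rps3 (822), which lines the entry of the mRNA channel, Rps29 (705) and Rps9 (673). Coding length leaves out the untranslated ends, whose reads are counted, so short genes are overstated. Per kilobase of all annotated exons together (GENCODE M21, GRCm38), high levels were those of Rpl4 at 346, Rplp1 at 271, Rpl8 at 261, Rps3a1 at 259 and Rps4x at 247. Rpl4 (chromosome 9, 64173375 to 64178666, plus strand) lines the exit tunnel of the large subunit, and Rplp1 is part of the stalk that recruits elongation factors. The lowest core gene on that scale was Rps15a at 17.2, which stood at 276 per kilobase of coding sequence and whose annotated exons together span 6270 bp against a coding length of 390 bp. The orders on the 2 scales had a Spearman rho of 0.58 over the 77 core genes, so the place of a gene in the order depends on the transcript model, while the medians of the subunits were close on each (small 295 and large 268 per coding kilobase, small 63.4 and large 68.7 per exon kilobase).

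**Figure D1:**
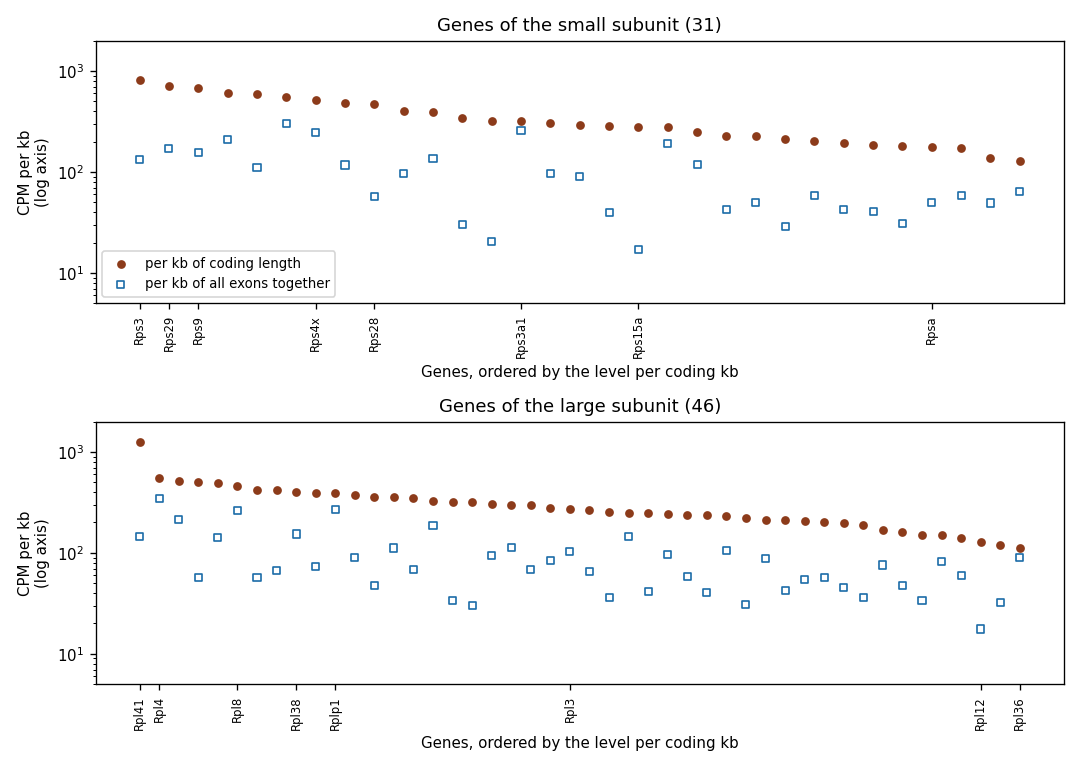
CPM per kilobase of the 31 small subunit and 46 large subunit genes over all 1187 cells (log axis), per coding length (filled circles) and per length of all annotated exons together (open squares), ordered by the first, with a few genes labelled. The filled circles run from 110.6 (Rpl36) to 1242 (Rpl41), and the squares do not follow the same order.

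The 14 paralogs fell into expressed genes and near-silent ones. Of the 5 at 20 CPM or more, Rpl7l1 stood at 90.7 CPM, Rps27l, a p53-responsive copy of Rps27, at 81.5, Rps4l at 77.0, Rpl22l1, the paralog of Rpl22, at 55.4 and Rpl36al, an expressed copy of Rpl36a, at 42.7 CPM. Rps27l stood at 101.8, 78.1, 68.7 and 76.6 CPM on plates 521, 522, 523 and 524. The other 9 were low. Rps27rt had 2.03 CPM, and Rpl39l, Rpl37rt, Rpl3l, Rps3a3, Rps12l2, Rpl10l, Rps3a2 and Rps12l1 lay between 0.0024 and 0.67 CPM. Rpl3l, a paralog made mainly in muscle, had 224 reads in all, and Rpl10l, a testis paralog, had 14. Paralogs share sequence with their parent gene, and how the counting treated reads that map to more than 1 place has no mention in the sources used here, so their levels are uncertain. Rps4l, Rps12l1, Rps3a2, Rps3a3 and Rpl37rt are annotated as pseudogenes in GENCODE M21, and Rps12l2 had no entry.

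The expressed paralogs were read less evenly than the core genes. At fixed depth 39.5% of cells held an Rpl7l1 read and 48.9% an Rps4l read, against the 74.6% or more of the core genes. Rps4l overlaps the gene Tmtc1 on the opposite strand (91.8 CPM), and whether the counting used strand is not stated, so reads of the 2 genes cannot be told apart. In all, 32 of the 82 genes at 20 CPM or more overlap an annotated gene other than a small nucleolar RNA.

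The ribosomal protein share differed between plates and was highest on plate 521. It was 1.398% on plate 521, 1.364% on plate 522, 1.246% on plate 523 and 1.169% on plate 524. The SD over cells within a plate was 0.390%, 0.314%, 0.291% and 0.257%, so single cells of the plates overlapped widely. Cells at 2% or more numbered 21, 10, 6 and 1 on the 4 plates, and cells under 1% numbered 29, 32, 47 and 73.

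**Figure D2:**
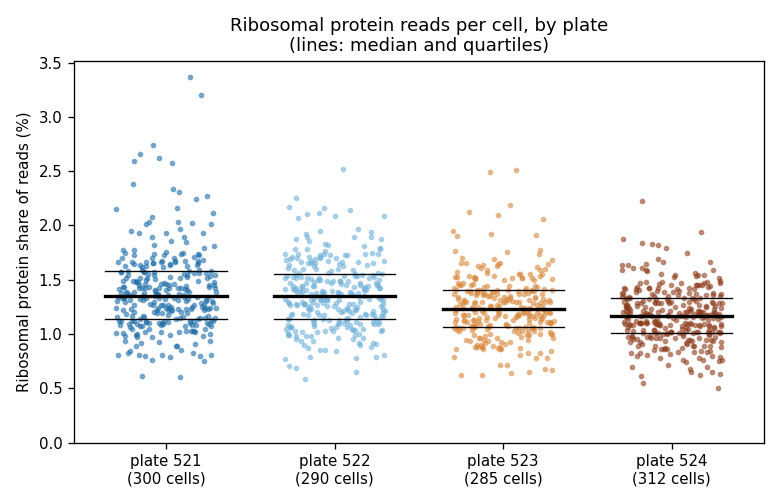
Share of each cell's reads (percent) that came from the 92 genes, 1 point per cell, for the 4 plates, with horizontal lines at the quartiles and, thicker, at the median. The medians are 1.35%, 1.35%, 1.23% and 1.16% and the clouds overlap over most of their range.

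Most genes were highest on plate 521 or 522 and lowest on plate 524. Set against the other 3 plates together, 81 of 82 genes were higher on plate 521 by any amount, against 51.1% of all 8240 genes tested, and 61 were higher on plate 522, against 49.5%. On plate 523 the count was 11, against 48.1%, and on plate 524 it was 1, against 47%. The highest of the 4 plates was plate 521 for 54 of the 82 genes, against 28.5% of all genes tested, and plate 522 for 26, against 24.2%. Plate 524 was the lowest for 68 genes, against 28.1%. By at least 1.5-fold, 1 gene (Rpl7l1) was higher on plate 521 and none lower, against 5.33% and 6.84% of all genes tested, and on plate 522 none was higher or lower, against 3.33% and 4.48%. On plate 523 none was higher and 1 (Rps4l) lower, against 3.02% and 6.26%, and on plate 524 none was higher and 1 (Rpl7l1) lower, against 4.13% and 6.78%. The differences were small for single genes. The highest plate stood over the lowest by 1.21-fold in the median core gene and by 1.405-fold at most, in Rpl3 (353, 376, 316 and 268 CPM on plates 521 to 524), which lies near the peptidyl transferase centre. Rpl13a (306, 298, 309 and 286 CPM) was the 1 gene of the 82 with its highest value on plate 523. Among the small spreads were those of Rpl36 at 1.08-fold, Rpl13a at 1.08-fold and Rpl41 at 1.10-fold. The widest spreads were those of Rpl7l1 (124, 90.9, 82.7 and 65.5 CPM) and Rps4l (85.9, 95.6, 53.3 and 73.5 CPM).

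The make-up of the plates differed as well. Capillary markers, 6 in number, came to a sum of 2385, 3261, 5606 and 5258 CPM on plates 521 to 524, the 6 venous markers to 972, 856, 418 and 484 CPM, and the 6 angiogenic markers to 1049, 633, 101.4 and 74.4 CPM. Cells also held more genes at fixed depth on plates 521 and 522 (medians 4148 and 3876) than on plates 523 and 524 (3276 and 3459). The part of either in the plate values was not tested.

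Cells were grouped by markers of the vessel zones at 100000 reads. A cell was arterial, venous or angiogenic when it held reads of at least 3 of the 6 markers of that zone and of fewer than 3 markers of each of the other two zones. A capillary cell held at least 4 of the 6 capillary markers and at most 1 marker of each other zone. This gave 167 arterial, 124 venous, 378 capillary and 79 angiogenic marker cells, while 439 cells fell in none. The groups are ranges of a marker count and not cell types: 54 arterial, 67 venous, 104 capillary and 64 angiogenic cells lay at the lowest count that let them in. Capillary markers were also read in the other groups, with a median of 4 of 6 in venous and angiogenic and 3 of 6 in arterial cells, so the groups do not separate the zones fully. Only 3 of the angiogenic cells were on plates 523 and 524, and only 16 of the capillary cells were on plate 521.

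With all plates pooled, arterial marker cells had the lowest and venous marker cells the highest ribosomal protein share of the 4 groups. The share was 1.205% in arterial, 1.251% in capillary, 1.341% in angiogenic and 1.420% in venous cells. In the quartiles over cells, arterial cells lay at 1.011% to 1.354% and venous cells at 1.246% to 1.526%, so that the middle ranges overlapped. Arterial cells had 1.335%, 1.264%, 1.123% and 1.097% on plates 521, 522, 523 and 524. Venous cells had 1.544%, 1.388%, 1.326% and 1.271% on the same plates. The venous value was the higher one on each of the 4 plates, and the plate order of the whole table was kept in both groups. In capillary cells the values were 1.260%, 1.341%, 1.287% and 1.176%, so that plate 521 was not the highest there. The angiogenic values on the 2 plates with enough cells were 1.330% and 1.390%. The pooled order of the groups was thus not kept on plates 521 and 522. On plate 521 the capillary and angiogenic values lay below the arterial one, and on plate 522 the angiogenic value lay above the venous one.

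**Figure D3:**
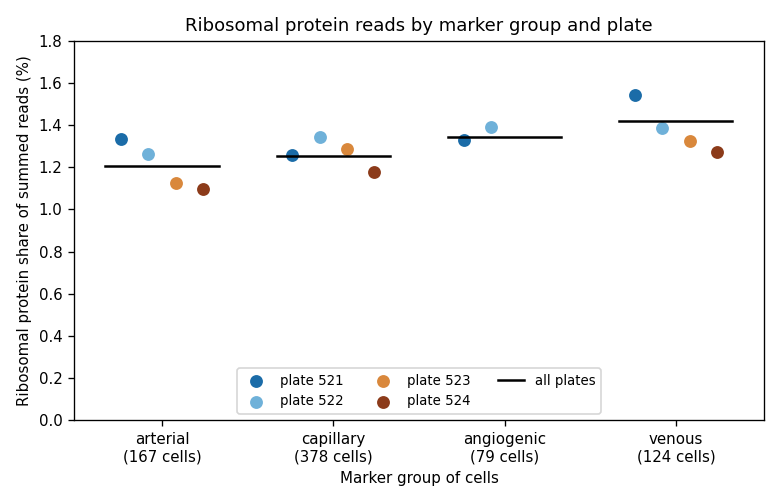
Ribosomal protein share of the summed reads (percent) of each marker group, for all plates (line) and for each plate with at least 10 cells of the group (points). Venous points lie above arterial points on each of the 4 plates, and capillary points lie between 1.18% and 1.34%.

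The log2 ratio of arterial to venous share was -0.24 over all plates and -0.21, -0.13, -0.24 and -0.21 within plates 521 to 524. With each plate given the same weight the mean was -0.20. Venous over capillary cells it was 0.18, with 0.29, 0.05, 0.04 and 0.11 within plates and a mean of 0.12. Without plate 521, which held 16 of the capillary cells, it was 0.095. Arterial over capillary cells it was -0.055, with 0.08 on plate 521 and -0.09, -0.20 and -0.10 on the others, so its direction differed between plates. Without plate 523 it was 0.0028. Angiogenic over capillary cells it was 0.10, with 0.08 and 0.05 on plates 521 and 522. Without plate 524, which held 2 of the angiogenic cells but 151 of the capillary ones, that ratio was 0.05. Arterial and venous cells were closer to each other in genes read at fixed depth (medians 3951 and 4239) than either was to capillary cells (3318), and the mitochondrial share was 1.27% in arterial, 1.41% in capillary and 1.48% in venous cells. The part of the mitochondrial share in these ratios was not tested. The venous and arterial groups share the capillary cells as their reference in these ratios.

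The arterial-to-venous difference ran through nearly the whole set. Of 82 genes, 2 were higher in arterial cells by any amount, against 49.9% of all genes tested, and the median log2 ratio was -0.25, against -0.0025 over all genes. All 31 small subunit genes and all 46 large subunit genes were lower in arterial cells in the pooled values. In 52 of 82 genes the arterial value was the lower one on each of the 4 plates, against 11.1% of all genes tested, and 20 of these were small subunit and 32 large subunit genes. The medians of the subunits were -0.25 (small) and -0.27 (large). The only genes with a higher arterial value were the paralogs Rps4l (0.32, higher on each plate) and Rpl36al (0.02). Few genes moved far: 3 of 82 were at least 1.5-fold lower in arterial cells, against 11.2% of all genes tested, and none was 1.5-fold higher, against 12% of all genes tested.

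**Figure D4:**
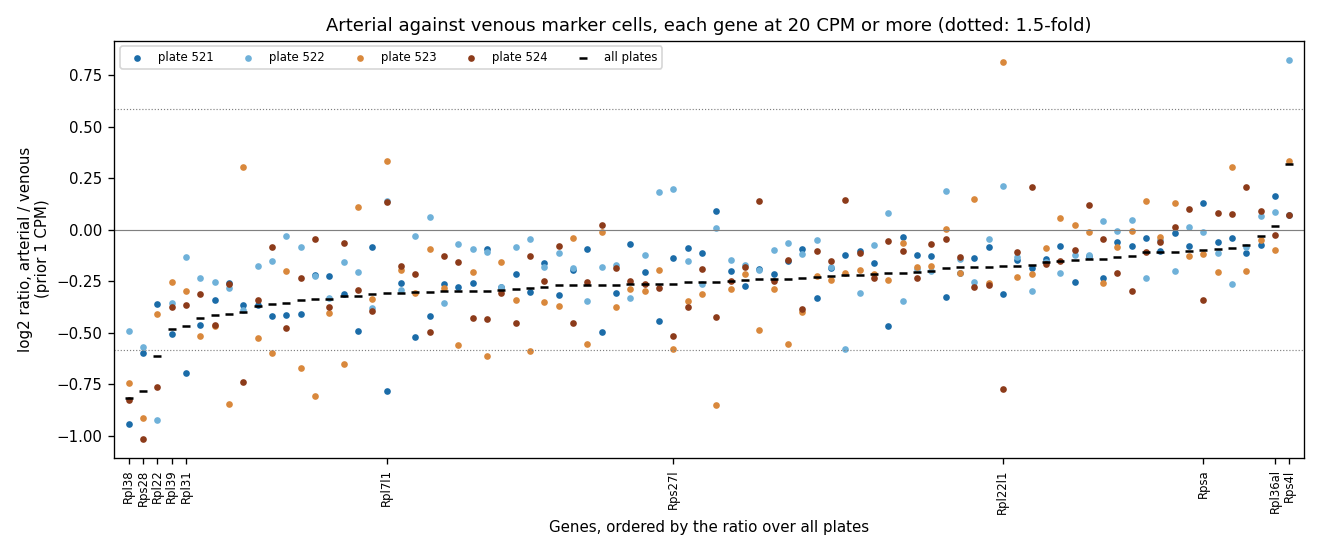
Log2 ratio of arterial to venous marker cells (prior 1 CPM) for each of the 82 genes at 20 CPM or more, over all plates (dash) and on each plate (points), with dotted lines at 1.5-fold and a few genes labelled. All but Rps4l and Rpl36al lie below 0 in the pooled values, and Rpl38, Rps28 and Rpl22 lie below the lower dotted line.

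Rpl38, a small protein on the surface of the large subunit whose loss in mice disturbs the pattern of the axial skeleton, stood furthest apart. It had 54.9, 53.8, 47.5 and 47.0 CPM in the arterial cells of plates 521 to 524. Venous cells had 106.4, 76.2, 80.3 and 84.2 CPM, and capillary cells 91.4, 87.0, 88.2 and 87.0 CPM. Angiogenic cells had 102.8 and 95.9 CPM on plates 521 and 522. All 4 arterial values lay below every value of the other groups. Over single cells the quartiles were 24.8 to 64.5 CPM in arterial, 48.9 to 123.7 CPM in venous and 52.2 to 116.5 CPM in capillary cells. The log2 ratio was -0.82 to venous cells (-0.94, -0.49, -0.75 and -0.83 by plate) and -0.78 to capillary cells (-0.72, -0.68, -0.88 and -0.87), while venous over capillary cells it was 0.04. The share of cells with a read at fixed depth was 92.8% in arterial and 97.4% to 98.7% in the other groups. The gene (chromosome 11, 114668524 to 114672331, plus strand) overlaps no other annotated gene. Its 2 copies with -ps or -rs symbols had 0.023% as many reads as the gene itself, and copies under other symbols were not counted.

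Rps28, a small subunit protein near the mRNA exit site, had 89.8, 84.5, 64.4 and 57.6 CPM in the arterial cells of plates 521 to 524. Venous cells had 136.5, 125.9, 122.3 and 117.5 CPM, and capillary cells 104.0, 100.3, 96.6 and 85.1 CPM. The arterial value was the lowest and the venous value the highest of these 3 groups on each plate, with a log2 ratio of -0.78 between them. The gene (chromosome 17, 33819027 to 33824562, minus strand) overlaps Kank3 on the opposite strand, a gene with more reads in endothelium. Kank3 stood at 416 CPM in arterial, 775 CPM in venous and 862 CPM in capillary cells. It was lower in arterial than in venous cells on each plate as well, and its part in the value of Rps28 was not tested.

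Rpl22, an RNA-binding protein of the large subunit, was the third gene past 1.5-fold, with a log2 ratio of -0.62. It had 132.8, 86.4, 128.2 and 68.6 CPM in arterial and 170.5, 164.9, 170.3 and 117.3 CPM in venous cells. Its capillary values, 79.9, 127.1, 151.8 and 134.5 CPM, overlapped the arterial and the venous values. Rpl39, which lies in the exit tunnel, followed with -0.48 and was the lower one in arterial cells on each plate (45.8, 42.8, 31.3 and 37.9 against 65.5, 55.1, 37.6 and 49.6 CPM). The paralog Rpl22l1 had a log2 ratio of -0.18.

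Against capillary cells, 1 gene was at least 1.5-fold lower in arterial cells (Rpl38), against 8.82% of all genes tested, and 1 was at least 1.5-fold higher (Rps4l), against 9.26%. On each of the 4 plates 23 genes were lower, against 10.9% of all genes tested, and 2 were higher (Rpsa and Rpl7l1), against 11%. After Rpl38 the lowest ratios were those of Rpl22 (-0.42), Rps28 (-0.33) and Rpl39 (-0.29). After Rps4l (0.63) the highest were those of Rpl7l1 (0.43), Rpsa (0.34) and Rpl36al (0.27). Rps4l was lower on plate 521 (-0.77), where 16 capillary cells were counted, and higher on the others (0.70, 1.01 and 0.33).

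Venous cells stood above capillary cells in 79 of 82 genes by any amount, against 50.6% of all genes tested. In 18 genes this held on each of the 4 plates, against 8.74% of all genes tested, and no gene was lower on each plate, against 9.81%. Within plates the count of higher genes was 67, 48, 41 and 58 of 82, so that on plate 523 it was no more than an even split. The highest ratios were those of Rpl7l1 (0.74), Rps28 (0.46), Rpsa (0.44) and Rpl6 (0.33). Rpl7l1 was the 1 gene at least 1.5-fold higher, against 9.61% of all genes tested (none was lower, against 10.4%), and its ratio by plate was 1.27, -0.10, 0.10 and 0.45. The genes with a lower venous value were Rps29 (-0.04), Rpl21 (-0.02) and Rpl13a (-0.0050).

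Rpsa, a small subunit protein also known as a laminin receptor, had the highest arterial-to-capillary ratio of the core genes. Capillary cells had 130.2, 157.7, 127.7 and 129.4 CPM on plates 521 to 524. Arterial cells had 205.5, 188.3, 154.5 and 130.1 CPM and venous cells 187.6, 189.5, 167.9 and 165.0 CPM. Angiogenic cells had 173.5 and 197.5 CPM on plates 521 and 522. The capillary value was the lowest of the groups on each plate, by 0.01 (log2) from arterial cells on plate 524. Its arterial-to-venous log2 ratio was -0.10, against the median of -0.25, and changed sign between plates (0.13, -0.01, -0.12 and -0.34). The share of cells with an Rpsa read at fixed depth was 83.6% in capillary and 92.8% to 96.8% in the other groups.

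Angiogenic over capillary cells, 66 of 82 genes were higher by any amount, against 47.9% of all genes tested. On both plates with enough cells 31 were higher (37.8%, against 26.7%) and 15 were lower (18.3%, against 26.6%). No gene passed 1.5-fold, where 11.9% of all genes tested were higher and 14.7% lower. The highest ratios were those of Rpl15 (0.46), Rpsa (0.42), Rpl6 (0.41) and Rps27l (0.33). Rpl15, a large subunit protein, had 206.7 and 159.8 CPM in angiogenic and 154.6 and 142.5 CPM in capillary cells on plates 521 and 522. Among the lowest were Rps4l (-0.14), Rpl21 (-0.13) and Rpl13a (-0.12).

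The share was also set against each zone marker by itself, as the difference in median share between cells with and without a read of the marker at fixed depth. These are the markers that made the groups, read in the same cells, so their values are not independent of the group comparisons. With all plates pooled, cells with a read had the lower median for all 6 arterial markers. The differences ran from -0.048 percentage points (Bmx) to -0.146 (Hey1, a Notch target, 1.159% against 1.305%). Hey1, Gkn3 and Gja4 gave a lower median on each of the 4 plates, and Bmx, Sema3g and Vegfc on 3. With all plates pooled, cells with a read had the higher median for all 6 venous markers. These differences ran from 0.082 (Il1r1) to 0.133 (Nr2f2, the regulator of venous identity, 1.374% against 1.241%). Nr2f2, Slc38a5 and Il1r1 gave a higher median on each of the 4 plates, while Vcam1 did so on 3, and Ackr1, read in 17 cells, was lower on the only plate with enough cells.

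Over all cells, each capillary marker but Car4 went with the lower median, and each angiogenic marker but Plaur with the higher one. Within plates neither list gave a shared direction. Spock2 had the widest difference of the capillary markers (-0.243 percentage points), but only 32 cells held no read of it. Its differences on plates 521 and 522 were -0.194 and 0.00052. Esm1 and Pgf had too few cells for plate values. Among capillary markers, Car4 cells had the higher median on each plate (by 0.00052 to 0.084 percentage points, the smallest on plate 522), Rgcc cells had the lower one on each plate, and Mfsd2a, Tfrc and Slc16a1 differed between plates. Among angiogenic markers, Apln cells had the higher median (1.368% against 1.241%), but by 0.018 and 0.045 percentage points within plates 521 and 522, against 0.126 over all cells. Plaur cells had the lower median (1.178% against 1.275%) over all cells and on 3 of 4 plates, and Angpt2 and Adm changed sign between plates.

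Ribosomal protein genes varied together over cells. For each gene read in at least 50% of cells at 100000 reads, the Spearman rho between its reads and the summed reads of the other ribosomal protein genes was taken within each plate and averaged over the 4 plates. The median rho was 0.38 for 80 ribosomal protein genes (0.13 to 0.56) and -0.0019 for 2003 other genes (-0.18 to 0.45). Genes with more reads can give a higher rho. Among genes read in at least 95% of cells, the median was 0.43 for 46 ribosomal protein genes and 0.027 for 138 others. Of the 25 genes with the highest rho 24 were ribosomal protein genes, of the 50 highest 43 and of the 100 highest 65. The values share the cells and their libraries and describe these 1187 cells.

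**Figure D5:**
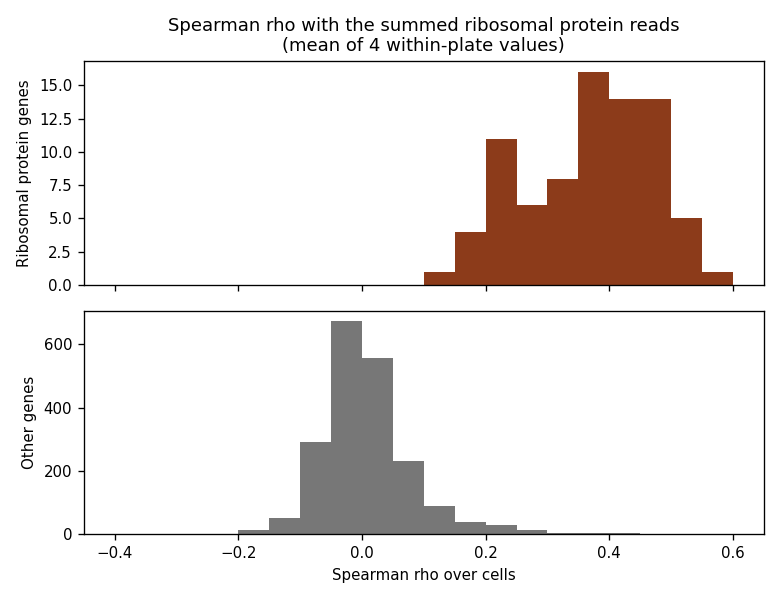
Number of genes by Spearman rho over cells (mean of 4 within-plate values) with the summed ribosomal protein reads at 100000 reads per cell, for 80 ribosomal protein genes (upper) and 2003 other genes (lower). The upper bars lie between 0.1 and 0.6 and the lower bars centre on 0.

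The genes that followed the rest most closely were Rps14 (0.56), Rps29 (0.55), Rplp1 (0.54) and Rpl37a (0.53), and these values lay between 0.45 and 0.62 on single plates. The loosest were 3 paralogs and Rpl5, a partner of 5S rRNA that can bind the p53 regulator Mdm2. They were Rps27l at 0.13, Rpl36al at 0.17, Rpl22l1 at 0.18 and Rpl5 at 0.18. Rpl4, the gene with the most reads of the set (695 CPM), was loose as well, at 0.21, and was named after its value had been seen.

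Among the other genes near the set were ribosomal proteins that carry other symbols. Fau (0.45) encodes a ribosomal protein fused to a ubiquitin-like domain, while the ribosomal scaffold Gnb2l1 (Rack1) had a rho of 0.17. Other genes with a high rho were the actin-binding thymosin Tmsb4x (0.42), the mitochondrial rRNA mt-Rnr1 (0.41), Tlcd1 (0.40), Tpt1 (0.39), Gm28037 (0.39), the elongation factor Eef1a1 (0.36), Tmsb10 (0.35) and the ferritin heavy chain Fth1 (0.32). Tlcd1 overlaps Rpl23a on the opposite strand and Gm28037 overlaps Rpl24, so their reads cannot be told apart from those genes. The lowest values were those of Ltbp4 (-0.19), Igfbp7 (-0.18), Gm12868 (-0.17), the glucose transporter Slc2a1 (-0.17) and the Notch ligand Dll4 (-0.17). Gm12868 overlaps Slc2a1 on the opposite strand, so the reads of Gm12868 and Slc2a1 cannot be told apart either.

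Genes of the wider translation machinery were read from 5 lists. The 16 translation genes known for TOP mRNAs summed to 5274, 5260, 4560 and 4385 CPM on plates 521 to 524, the plate order of the ribosomal proteins. Their median log2 ratio was -0.15 in arterial against venous, 0.21 in venous against capillary and 0.22 in angiogenic against capillary cells, and 0.08 in arterial against capillary cells. Shares of all genes tested at least 1.5-fold higher and lower were 12% and 11.2% in arterial against venous cells. Against capillary cells they were 9.61% and 10.4% in venous, 11.9% and 14.7% in angiogenic, and 9.26% and 8.82% in arterial cells. Of the 16 translation genes, none passed 1.5-fold in 3 of these comparisons, and Pabpc1 (0.61) was higher in angiogenic cells. Eif3f (-0.46), Tpt1 (-0.39) and Eef1g (-0.36) had the lowest arterial-to-venous ratios, and Pabpc1 (0.31) the highest. Their rho with the ribosomal protein genes had a median of 0.13 over the 15 genes read in enough cells. Fau and Gnb2l1 had arterial-to-venous ratios of -0.17 and -0.27.

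The 22 ribosome biogenesis genes summed to 1373, 1401, 1239 and 1239 CPM on plates 521 to 524, higher on plates 521 and 522 as the ribosomal proteins were. The 20 of them at 20 CPM or more had a median log2 ratio of 0.12 in venous against capillary and 0.17 in angiogenic against capillary cells, of the same sign as the ribosomal proteins, and of 0.06 in arterial against capillary and 0.11 in arterial against venous cells, of the opposite sign. In the arterial-to-venous comparison 1 passed 1.5-fold in each direction, Ltv1 (0.93), a factor of small subunit export, and Bop1 (-0.71), a factor of large subunit assembly. The 9 genes (of 12) that control ribosome supply and stood at 20 CPM or more had a median arterial-to-venous log2 ratio of 0.03. Of these 9 genes, 2 were at least 1.5-fold higher in arterial cells and none was 1.5-fold lower. The 2 were Larp1 (0.77), the protein that binds TOP mRNAs, and the mTOR inhibitor Tsc1 (0.76). Neither was read in enough cells at fixed depth to be given a rho with the ribosomal protein genes. The part of these 2 genes in the ribosomal protein values was not tested. The 71 mitochondrial ribosomal protein genes at 20 CPM or more had a median arterial-to-venous log2 ratio of 0.0041, with 4 at least 1.5-fold higher and 5 lower. The shares of all genes past 1.5-fold in this comparison were 12% higher and 11.2% lower, as given above.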

How the data were processed

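The authors deposited 1 table of read counts per gene for 46517 genes and 1187 columns, without molecular identifiers. The tools in the submitters' processing notes are featureCounts, Subread 1.4.6-p5, TopHat2 2.1.1 and SAMtools 0.1.18, and the build is GRCm38 (mm10). How strand and reads with several matches were treated has no mention in the sources used here. Overlapping genes and retrocopies can therefore take or lose reads. There were 0 columns left unused, no cell was removed, and no doublet caller was run.

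Counts were summed over cells and scaled to the total (CPM), and log2 ratios used a prior of 1 CPM. Genes at 20 CPM or more over all cells were compared (8240 genes), and 1.5-fold was the size named. With 1 pooled sample there was no test. Plates, on which groups needed at least 10 cells, give the spread. Each cell was thinned to 100000 reads (seed 20) for marker groups, cells with a read and co-variation, which lost no cell. Intervals are exact Clopper-Pearson at 95% and cover counting error only, since PCR reads are not independent molecules. Lengths came from GENCODE M21 and starts from RefSeq. Python 3.11.15, NumPy 2.4.6, SciPy 1.17.1 and edgeR 4.0.16 (for its TMM factors) were used, and the scripts were tested on simulated data.

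Genes were named by rule: the 6 highest and 6 lowest per exon kilobase, every paralog, the 4 highest and 4 lowest in each comparison, in plate range and in co-variation, and the 10 highest and 5 lowest other genes by rho. Other names were chosen after their values were seen, and some genes that the rule names are not reported here. The genes, lists and markers were chosen with earlier results of these data known.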

Additional observations from a re-analysis of the deposited data

How the results depend on the processing

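Alternatives were other marker thresholds, equal weight per plate, TMM scaling, a total without ribosomal protein and mitochondrial reads, thinning, and leaving out each plate or the 19 cells with markers of other types. The arterial-to-venous log2 ratio stayed between -0.28 (at least 4 of 6 markers) and -0.20 over 11 alternatives, and the venous-to-capillary ratio between 0.095 (without plate 521, against 0.18 with it) and 0.23. The arterial-to-capillary ratio changed direction without plate 523 (0.0028). The angiogenic-to-capillary ratio was 0.0081 with at least 4 of 6 markers (16 angiogenic cells), 0.065 as the mean over plates, and 0.12, 0.14 and 0.049 without plates 521, 523 and 524. TMM moved no ratio by more than 0.02. The rho of share and genes read was -0.040, -0.048, -0.066 and -0.0022 within plates 521 to 524, against 0.055 over all cells. The median core level was 280.1 per coding kilobase and 118.4 per kilobase of the longest transcript, against 68.4 per exon kilobase. The subunit ratio was 1.03 over genes without a row of -ps or -rs copies, against 0.740.

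Genes past 1.5-fold numbered 2 (arterial against capillary), 1 (venous against capillary), 0 (angiogenic against capillary) and 3 (arterial against venous). At a threshold of 25% above equal these were 6, 5, 4 and 16. At 2-fold they were 0 in each. Without the filter on low counts they were 3 for venous and 2 for angiogenic against capillary cells. Shares of all genes were taken only at 1.5-fold with the filter. The counts at the other thresholds and without the filter therefore have no background to be set against. No paired analysis was possible because no column could be matched to a numbered sample. Depth limits genes under 20 CPM most, such as the 9 low paralogs.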

Other observations

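Rows with -ps or -rs symbols, which mark pseudogenes and related sequences, held few reads. Copies under other symbols were not counted. The treatment of reads with several matches is not known, so a low count on such a row need not mean a silent copy. The 261 rows with -ps or -rs symbols together held 0.00496% of all reads, and adding them to the 92 genes took the share from 1.293% to 1.298%. The largest number of reads on such rows relative to the parent gene was that of Rps12, with 21 copies that held 5.06% as many reads as the gene itself. Rpl3 followed with 3.04% and Rps2 with 2.33%. Rps19bp1, which the symbol rule brought in although it is no ribosomal protein, stood at 16.4 CPM, was read in 12.7% of cells at fixed depth and had 22.9, 14.9, 19.6 and 8.41 CPM on plates 521 to 524.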
